A study of Mus musculus with 10 samples.

Results

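This section describes 9 transcription factors that pattern the mesenchyme of the skull and face: Alx1, Alx4, Msx1, Msx2, Twist1, Foxc1, Foxc2, Zic1 and Lmx1b. They were taken from 23103 distinct gene names in the tables of the series, as the rows whose name equals the symbol. All 9 had a row of their own in the rib table. In the table of the osteoblasts there were 8 such rows, and Foxc2 stood in a row shared with its neighbour Foxl1, so that row is given apart and its level cannot be assigned to either gene. RNA was sequenced in 10 mouse libraries. Of these, 3 were Col10+ rib hypertrophic chondrocytes from Col10a1-mCherry tg mice and 3 were Col2+ rib chondrocytes from Col2a1-ECFP tg mice, all of the ICR strain at postnatal day 1. The other 4 were osteoblasts (bone-forming cells) dissected from the frontal bone and the front of the parietal bone of C57BL/6 embryos at E17.5, 2 with the genotype Runx2_cHom_KO and 2 with Runx2_cHet_KO. The genotype names read as homozygous and heterozygous conditional knockouts of Runx2, the transcription factor required to form osteoblasts. The sources used here do not name what drives the deletion, and no wild-type group was analysed.

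The roof of the skull forms from cranial neural crest and head mesoderm, which condense above the meninges and turn directly into bone without a cartilage stage. Homeodomain factors of the Alx and Msx families, the basic helix-loop-helix factor Twist1, the forkhead factors Foxc1 and Foxc2, the zinc finger factor Zic1 and the LIM-homeodomain factor Lmx1b act in this mesenchyme, where they set the fields of the bones and the position of the sutures between them. Twist1 is also known to bind Runx2 and restrain its activity. Ribs arise from the somites and form through cartilage, so the rib sorts show which of these factors are also present in rib chondrocytes. The sorts differ from the osteoblasts in cell type, age, strain and library kit as well as in body region.

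Values are FPKM, the fragments mapped to a gene relative to its transcript length and to all mapped fragments, which allows levels of different genes to be compared. The rib table gave 1 value for each sort, so no rib difference has an error or a test. The osteoblast table gave a value for each library, and ± stands for the SD over n = 2 libraries. The tables were normalized separately, so levels set beside each other across them are descriptions. Total depth is unknown. From the FPKM steps of rarely read genes, 1 read in Runx2_cHet_KO library 1 was worth between 0.796 and 0.843 times a read in the other osteoblast libraries, so that library was read most deeply. All rows together came to 712295 FPKM in the Col10+ sort and 567147 FPKM in the Col2+ sort, and to between 536770 and 567272 FPKM in the osteoblast libraries. Runx2 itself was at 32.9 and 32.6 FPKM in the Runx2_cHom_KO libraries, against 43.4 and 53.9 FPKM in the Runx2_cHet_KO libraries. The log2 change of Runx2 was -0.55 (standard error 0.13, limma adjusted p = 0.0707), so the genotypes did not overlap but the test was missed. Deleted exons cannot be seen in 1 value for a whole gene.

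Foxc1 and Zic1 were the 2 members that passed the adjusted p in the osteoblast comparison described below, and the 250 bases before their annotated starts are shown for that reason. The sequences are RefSeq's for build GRCm38.p6, in which 6 of the 9 members were matched: Msx1, Msx2, Twist1, Foxc1, Zic1 and Lmx1b. Foxc1 lies at chr13:31806396-31806645 on the plus strand and Zic1 at chr9:91365769-91366018 on the minus strand. Capitals mark TGTGGT, the core of the motif that Runx factors bind, which was searched on both strands.
Foxc1: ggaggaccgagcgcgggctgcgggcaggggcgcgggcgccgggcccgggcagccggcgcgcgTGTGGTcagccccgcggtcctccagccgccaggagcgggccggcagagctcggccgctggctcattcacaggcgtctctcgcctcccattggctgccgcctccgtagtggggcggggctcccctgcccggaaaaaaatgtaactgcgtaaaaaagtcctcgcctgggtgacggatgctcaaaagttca
Zic1: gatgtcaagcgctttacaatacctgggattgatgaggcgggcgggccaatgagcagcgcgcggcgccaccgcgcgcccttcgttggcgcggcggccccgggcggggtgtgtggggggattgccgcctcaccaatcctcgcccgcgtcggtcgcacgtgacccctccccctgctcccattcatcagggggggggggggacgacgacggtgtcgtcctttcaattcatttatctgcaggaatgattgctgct

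The Foxc1 window holds the motif 1 time, with its first base 188 bases before the start, and the Zic1 window does not hold these letters. Of the 6 windows, 1 held the motif, against 14.0% of all 32851 promoter windows of the same length. The 6 windows shared a base composition that the choice of members did not use. Their GC content ran from 61.6% in Msx2 to 70.8% in Foxc1, against a median of 52.4% over all windows, and they held between 16 and 29 CpG pairs, against a median of 6.

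All members with a row of their own were present in the osteoblasts, and 5 of the 9 were nearly absent from the rib sorts. Alx4, Msx1, Msx2, Zic1 and Lmx1b were under 1 FPKM in both rib sorts, between 0.0187 and 0.589 FPKM. In the osteoblast libraries the same 5 genes lay between 9.44 and 63.0 FPKM. The remaining 4, Twist1, Foxc1, Foxc2 and Alx1, were between 3.41 and 30.4 FPKM in the rib sorts. Alx1 was at 6.22 FPKM in Col10+ cells, 14.8 FPKM in Col2+ cells and between 2.86 and 6.45 FPKM in the osteoblasts, which makes it the member with the lowest osteoblast levels among those with a row of their own and the second highest level in the Col2+ sort.

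**Figure D1:**
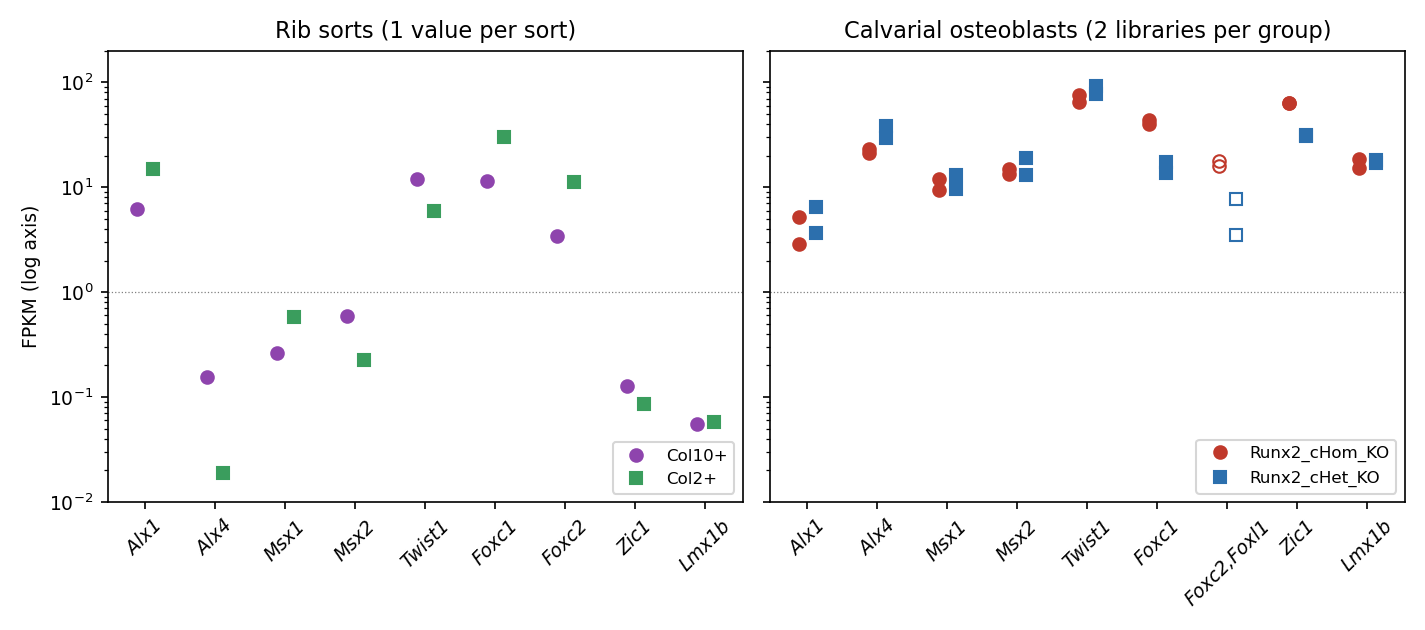
FPKM of each member on a log axis, in the Col10+ and Col2+ rib sorts (left, 1 value per sort) and in each Runx2_cHom_KO and Runx2_cHet_KO osteoblast library (right, 1 point per library; open symbols mark the row shared by Foxc2 and Foxl1). The dotted line marks 1 FPKM. Alx4, Msx1, Msx2, Zic1 and Lmx1b sit under it in both rib sorts. Foxc1, Zic1 and the row shared by Foxc2 and Foxl1 show Runx2_cHom_KO points above all Runx2_cHet_KO points.

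The order of the levels differed between the tissues. In the osteoblasts Twist1 was the highest member in each of the 4 libraries and Alx1 the lowest of the 8 with a row of their own. In the Runx2_cHom_KO libraries Zic1, Foxc1 and Alx4 followed Twist1 in that order. In the Runx2_cHet_KO libraries Zic1 (31.0 and 31.6 FPKM) and Alx4 (29.3 and 38.0 FPKM) followed Twist1, and these neighbours overlapped. The Lmx1b, Msx1 and Msx2 levels lay close together in both genotypes, between 9.44 and 19.0 FPKM. Foxc1 was in the same range in Runx2_cHet_KO cells (17.2 and 13.6 FPKM) and above it in Runx2_cHom_KO cells (39.9 and 43.5 FPKM). In the rib sorts Twist1 (12.1 FPKM) and Foxc1 (11.5 FPKM) were the highest members in Col10+ cells, and Foxc1 (30.4 FPKM) and Alx1 (14.8 FPKM) in Col2+ cells.

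The first comparison set the homozygous against the heterozygous Runx2 genotype in calvarial osteoblasts. Foxc1, a forkhead factor needed for the skull roof, rose in Runx2_cHom_KO cells. Zic1, a zinc finger factor of neural and cranial mesenchymal tissue, was at a 2.01-fold higher level with very little spread between libraries. The 2 Msx genes and Lmx1b had changes smaller than the difference between libraries of one genotype, and Alx4 and Twist1 had lower values in Runx2_cHom_KO cells that did not pass the test. Over all 11909 genes tested with limma on log2(FPKM + 1), 274 (2.3%) were called higher and 165 (1.39%) lower in Runx2_cHom_KO cells, 3.69% in all, where a call needs a log2 change of 1 or more in size and a Benjamini-Hochberg adjusted p below 0.05. Among the 8 members with a row of their own, 1 rose and 0 fell by this rule. By the adjusted p alone 2 of the 8 were higher and 0 lower in Runx2_cHom_KO cells, against 3.78% and 3.54% of all genes. The median log2 change was -0.11 over the 8 members and -0.03 over all genes tested.

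Foxc1 had 39.9 and 43.5 FPKM in the Runx2_cHom_KO libraries, against 17.2 and 13.6 FPKM in the Runx2_cHet_KO libraries. Both Runx2_cHom_KO libraries lay above both Runx2_cHet_KO libraries. The mean was 41.7 ± 2.58 FPKM in Runx2_cHom_KO cells and 15.4 ± 2.55 FPKM in Runx2_cHet_KO cells (SD, n = 2 each), a 2.70-fold higher level. The log2 change was 1.38 with a standard error of 0.14 (limma adjusted p = 0.0138), and Foxc1 was the one member with a row of its own past the limit of 1 on the log2(FPKM + 1) scale. In bulk RNA, more cells of a type and more RNA per cell cannot be told apart. Without Runx2_cHom_KO library 1 the adjusted p was 0.213, and without library 2 it was 0.208, settings in which limma called 0 genes and 1 gene in all. At an unadjusted p under 0.05, 668 genes were higher and 902 lower without library 1, and 784 higher and 895 lower without library 2.

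Zic1 had 62.8 and 63.0 FPKM in the Runx2_cHom_KO libraries, against 31.0 and 31.6 FPKM in the Runx2_cHet_KO libraries. On the log2(FPKM + 1) scale its libraries differed by 0.0039 within Runx2_cHom_KO and by 0.026 within Runx2_cHet_KO cells, where the median difference over all tested genes was 0.14 and 0.19. The ratio of the means was 2.01, with a log2 change of 0.99, a standard error of 0.09 and a limma adjusted p of 0.0134. On the log2(FPKM + 1) scale the change fell just short of the limit of 1, so Zic1 is not counted among the 274 genes. It passed the limit at 1.01 with a pseudocount of 0.1 and at 1.02 with columns scaled by their median ratio. As with Foxc1, the adjusted p was 0.213 and 0.208 without either Runx2_cHom_KO library.

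The row shared by Foxc2, a forkhead factor of the somites and the skull base, and Foxl1, a forkhead factor best known in gut mesenchyme, was at 15.9 and 17.6 FPKM in the Runx2_cHom_KO libraries, against 7.66 and 3.51 FPKM in the Runx2_cHet_KO libraries. The genotypes did not overlap, but the Runx2_cHet_KO libraries differed from each other 2.18-fold. The log2 change was 1.51 (standard error 0.32, limma adjusted p = 0.0558), just over the threshold on the adjusted p. It passed without Runx2_cHet_KO library 1 (log2 change 1.98, adjusted p = 0.00502) and without Runx2_cHet_KO library 2 (1.03, adjusted p = 0.0181), and not without either Runx2_cHom_KO library (1.58 and 1.43, adjusted p = 0.309 and 0.297). In the rib table, where the genes have rows of their own, Foxl1 was at 0.219 FPKM in Col10+ cells and 0.195 FPKM in Col2+ cells. Foxc2 was at 3.41 FPKM in Col10+ cells and 11.2 FPKM in Col2+ cells.

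Among the homeodomain members, Alx4, which in humans is mutated in defects of parietal bone closure, had 23.4 and 21.1 FPKM in the Runx2_cHom_KO libraries, against 29.3 and 38.0 FPKM in the Runx2_cHet_KO libraries. The genotypes did not overlap, and the log2 change was -0.57 with a standard error of 0.15 (limma adjusted p = 0.0875). It was -0.75 without Runx2_cHet_KO library 1 and -0.38 without library 2. Without Runx2_cHom_KO library 1 or 2 it was -0.64 or -0.50. With a replicate block the limma adjusted p was 0.144. Twist1, whose loss of 1 copy closes the coronal suture early in humans and mice, had 65.3 and 75.4 FPKM in Runx2_cHom_KO cells, against 77.5 and 93.3 FPKM in Runx2_cHet_KO cells. The highest Runx2_cHom_KO value and the lowest Runx2_cHet_KO value were nearly equal, and the log2 change of -0.27 (standard error 0.14) did not pass (limma adjusted p = 0.273). With Foxc1 and Zic1 above and Alx4 and Twist1 below, 2 of the 8 members lay wholly on each side. This is close to the background, in which 26.7% of all tested genes had both Runx2_cHom_KO libraries above and 31.3% had both below. In a two-sided exact permutation test of a single gene, 2 libraries against 2 cannot give a p under 0.333, and each of these 4 genes had that value.

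The genotypes overlapped in the other 4 members. Msx1 and Msx2 encode homeodomain proteins that respond to BMP signals in sutures and in craniofacial mesenchyme. Msx1 had 12.03 and 9.44 FPKM in Runx2_cHom_KO cells, against 13.1 and 9.66 FPKM in Runx2_cHet_KO cells (log2 change -0.07, standard error 0.19, limma adjusted p = 0.842). Msx2 had 14.8 and 13.5 FPKM in Runx2_cHom_KO cells, against 13.1 and 19.0 FPKM in Runx2_cHet_KO cells (-0.15, standard error 0.19, limma adjusted p = 0.666). Lmx1b, which keeps sutures open in the mouse and sets the dorsal side of the limb, had 15.3 and 18.8 FPKM in Runx2_cHom_KO cells, against 18.2 and 17.2 FPKM in Runx2_cHet_KO cells (-0.06, standard error 0.14, limma adjusted p = 0.805). In each of these 3 genes the libraries of at least 1 genotype differed by more than the genotypes did. Alx1, a factor of frontonasal and periocular mesenchyme, had 2.86 and 5.16 FPKM in Runx2_cHom_KO cells, against 3.65 and 6.45 FPKM in Runx2_cHet_KO cells (-0.27, standard error 0.32, limma adjusted p = 0.644). Its libraries differed 1.80-fold within Runx2_cHom_KO and 1.77-fold within Runx2_cHet_KO cells.

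**Figure D2:**
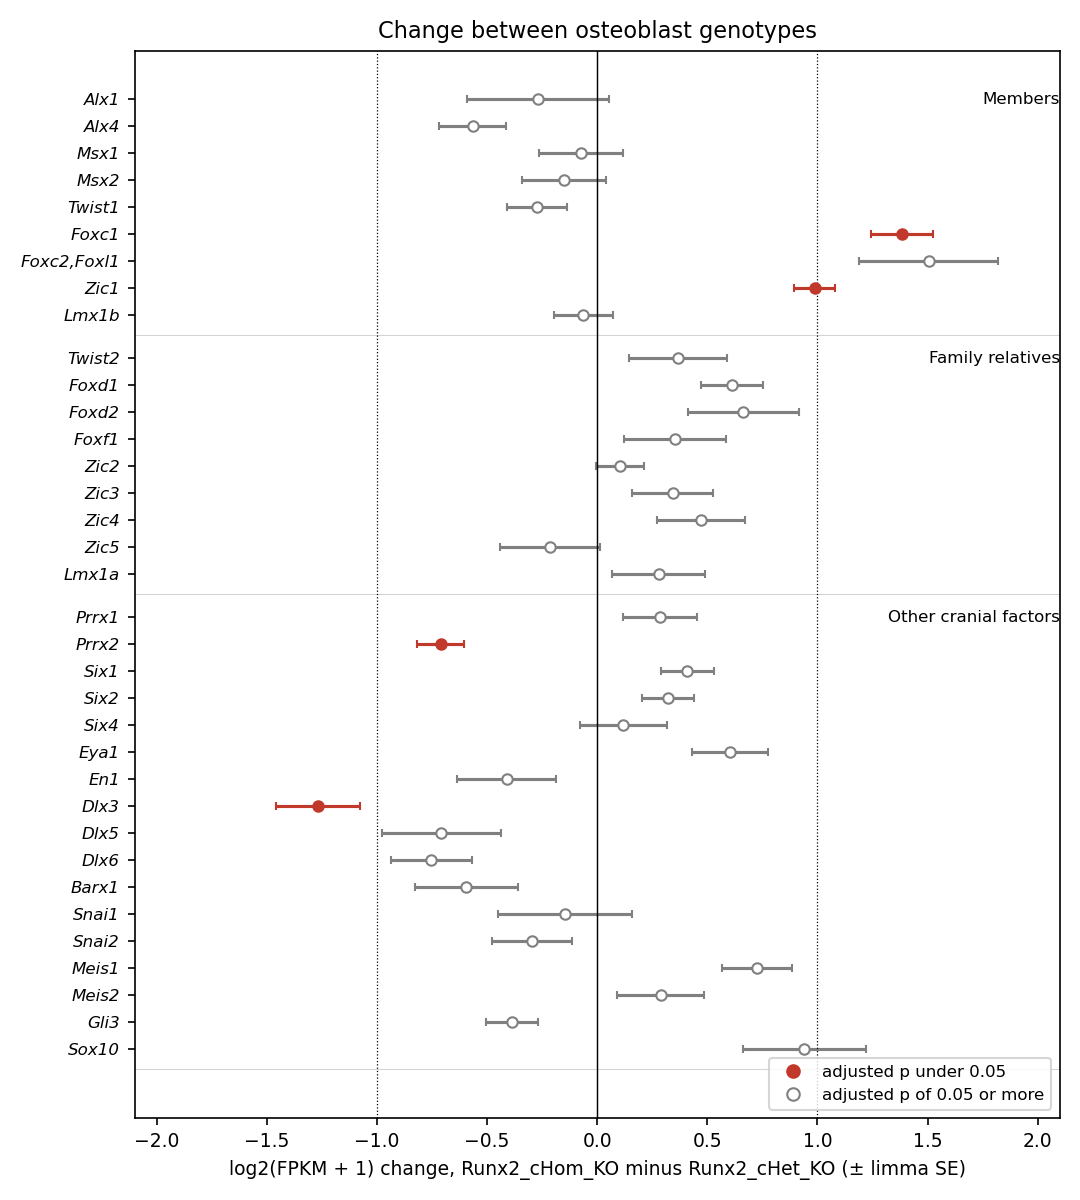
Change of log2(FPKM + 1) in Runx2_cHom_KO minus Runx2_cHet_KO osteoblasts (x axis) for the members and for the tested genes of the lists of family relatives and of other cranial factors (y axis), with limma standard errors as bars and filled points for an adjusted p under 0.05. Dotted lines mark a change of 1 in size. Foxc1 (1.38) and Zic1 (0.99) are the filled points among the members, and Dlx3 (-1.27) and Prrx2 (-0.71) those among the other factors.

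Several members share their locus with another row. Msx1as, a row named for the antisense RNA of Msx1 (Msx1os in RefSeq, where it overlaps Msx1), was at 9.21 and 7.44 FPKM in Runx2_cHom_KO cells and 11.4 and 7.38 FPKM in Runx2_cHet_KO cells, close to Msx1. C130021I20Rik, a long non-coding RNA that overlaps Lmx1b, was at 13.9 and 11.3 FPKM in Runx2_cHom_KO cells and 12.1 and 13.8 FPKM in Runx2_cHet_KO cells. Zic4, whose RefSeq gene overlaps that of Zic1, was at 3.73 and 4.99 FPKM in Runx2_cHom_KO cells and 3.21 and 2.50 FPKM in Runx2_cHet_KO cells (log2 change 0.47, limma adjusted p = 0.209). The sources used here do not say whether counting used the strand, so reads of Msx1, Lmx1b and Zic1 and of these overlapping RNAs may not be separated. Foxf2, the neighbour of Foxc1, was under 0.5 FPKM in all 4 libraries, and Gmds on its other side was at 11.7 and 10.8 FPKM in Runx2_cHom_KO cells and 9.72 and 10.5 FPKM in Runx2_cHet_KO cells (limma adjusted p = 0.526).

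The relatives of the members were examined next. Of the 12 listed, 9 were tested in the osteoblasts and 0 rose or fell by either rule, with 2.3% and 1.39% of all genes called in the 2 directions (limma). By the adjusted p alone the shares over all genes were 3.78% higher and 3.54% lower. At an unadjusted p under 0.05 the share over all tested genes was 26.8%. The median log2 change of the 9 was 0.35. The most abundant were Zic2, a zinc finger relative of Zic1, at 19.1 and 21.2 FPKM in Runx2_cHom_KO cells and 18.6 and 18.7 FPKM in Runx2_cHet_KO cells (limma adjusted p = 0.598), and Foxd1, a forkhead factor that is also a meningeal marker, at 21.3 and 22.9 FPKM in Runx2_cHom_KO cells and 15.7 and 12.6 FPKM in Runx2_cHet_KO cells (log2 change 0.61, limma adjusted p = 0.0621). In the rib sorts 9 of the 12 relatives were under 1 FPKM, as were most members, and 1 of 12 reached 5 FPKM: Foxf1, a forkhead factor of lateral mesoderm, at 1.18 FPKM in Col10+ and 5.73 FPKM in Col2+ cells.

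Of 27 other cranial mesenchyme and neural crest factors, 17 had a tested row in the osteoblasts, of which 0 rose and 1 fell (median log2 change -0.15). Over all tested genes 2.3% rose and 1.39% fell. Dlx3, a homeodomain factor of osteoblast formation, fell to 1.26 ± 0.315 FPKM in Runx2_cHom_KO cells, against 4.41 ± 0.296 FPKM in Runx2_cHet_KO cells (log2 change -1.27, limma adjusted p = 0.0260). The most abundant were the paired-type homeodomain factors Prrx1 and Prrx2. Prrx1 was at 111.6 and 118 FPKM in Runx2_cHom_KO cells and 80.0 and 111 FPKM in Runx2_cHet_KO cells (0.29, limma adjusted p = 0.346). Prrx2 was at 45.4 and 41.6 FPKM in Runx2_cHom_KO cells and 69.0 and 74.6 FPKM in Runx2_cHet_KO cells, a change that passed the adjusted p and not the limit on the log2 change (-0.71, limma adjusted p = 0.0254). Prrx2 missed the adjusted p without a filter on low values (limma, 0.0525), with neither trended nor robust variances (0.0601), with a replicate block (0.0661) and without Runx2_cHom_KO library 1 (0.232) or 2 (0.252).

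Of 12 partners and inhibitors of the helix-loop-helix and LIM-homeodomain members, 10 were tested (median log2 change 0.33). Of these, 0 passed both limits, against 3.69% of all tested genes. The 1 past the adjusted p alone, named after its values were seen, was Lmo4, which encodes a LIM-only protein, at 42.3 and 44.8 FPKM in Runx2_cHom_KO cells and 24.8 and 25.4 FPKM in Runx2_cHet_KO cells (0.77, limma adjusted p = 0.0191). It missed the adjusted p with a replicate block (limma, 0.0508) and without Runx2_cHom_KO library 1 (0.228) or 2 (0.227). The partners Tcf3 and Tcf12, with which Twist1 pairs, had log2 changes of -0.01 and -0.04 and are named after their values were seen. The dominant-negative partners Id2 and Id3 were the most abundant. Id2 was at 156 and 165 FPKM in Runx2_cHom_KO cells and 123 and 148 FPKM in Runx2_cHet_KO cells (0.25, limma adjusted p = 0.285), and Id3 at 167 and 168 FPKM in Runx2_cHom_KO cells and 125 and 127 FPKM in Runx2_cHet_KO cells (0.41, limma adjusted p = 0.0637).

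Of 18 signalling genes of the sutures, all tested, 1 rose and 0 fell (median 0.17). Over all tested genes the shares were 2.3% and 1.39% (median -0.03). Fgf18, a ligand that promotes osteoblast formation in sutures, rose to 22.4 ± 0.0687 FPKM in Runx2_cHom_KO cells, against 8.19 ± 1.37 FPKM in Runx2_cHet_KO cells (log2 change 1.36, limma adjusted p = 0.0142). The BMP ligands Bmp7 and Bmp2 passed the adjusted p and fell just short of the limit on the log2(FPKM + 1) change, and are named after their values were seen. Bmp7 was at 12.7 ± 0.167 FPKM in Runx2_cHom_KO cells and 5.94 ± 0.397 FPKM in Runx2_cHet_KO cells (0.98, limma adjusted p = 0.0190), and Bmp2 at 10.4 ± 0.963 FPKM in Runx2_cHom_KO cells and 22.0 ± 5.16 FPKM in Runx2_cHet_KO cells (-0.99, limma adjusted p = 0.0384). With a pseudocount of 0.1 both passed the limit as well, at 1.08 for Bmp7 (limma adjusted p = 0.0211) and -1.05 for Bmp2 (limma adjusted p = 0.0419). Bmp2 missed the adjusted p without a filter on low values (0.0750 with limma) and with neither trended nor robust variances (0.0717 with limma). Its log2 change was -1.08 without Runx2_cHom_KO library 1 and -0.90 without library 2. The most abundant, the receptors Fgfr1 and Fgfr2, had log2 changes of -0.46 and -0.47 (limma adjusted p = 0.115 and 0.146). Without Runx2_cHom_KO library 1 the limma adjusted p was 0.213 for both Dlx3 and Fgf18, and without library 2 it was 0.225 for Dlx3 and 0.208 for Fgf18. Dlx3 also missed the threshold without a filter on low values (limma adjusted p = 0.0526).

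The tissue label was checked against marker lists, and several lists moved with genotype beside Foxc1 and Zic1. The 10 osteoblast markers summed to 8007 and 8277 FPKM in the Runx2_cHom_KO libraries, against 12220 and 10667 FPKM in the Runx2_cHet_KO libraries, with the osteocalcin gene Bglap at 0 in both Runx2_cHom_KO libraries and at 21.7 and 32.6 FPKM in the Runx2_cHet_KO libraries. Of these 10 markers 6 fell and 0 rose, against 1.39% and 2.3% of all tested genes. Most of the sum was Col1a1, the main collagen gene of bone (log2 change -0.39, limma adjusted p = 0.117). The 10 markers of meningeal fibroblasts, the cells under the skull roof in which Foxc1 and Zic1 are also known to act, summed to 359 and 417 FPKM in Runx2_cHom_KO cells, against 197 and 108 FPKM in Runx2_cHet_KO cells. Most of that sum was Igfbp2, at 267 and 320.3 FPKM in Runx2_cHom_KO cells and 114 and 60.4 FPKM in Runx2_cHet_KO cells. Of the 8 tested genes of this list 2 rose, against 2.3% of all tested genes. The transporter gene Slc22a6 was listed at 0 in 3 of the 4 libraries and was at 0.151 FPKM in Runx2_cHet_KO library 1, and Ptgds was listed at 0 in Runx2_cHet_KO library 2.

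Dermal fibroblast markers, 9 in number, summed to 2240 and 2238 FPKM in Runx2_cHom_KO cells, against 1340 and 1680 FPKM in Runx2_cHet_KO cells, with none listed at 0. Most of that sum was the collagen gene Col3a1, and the list moved both ways. By the limma adjusted p alone 5 of its 9 genes were higher and 2 lower in Runx2_cHom_KO cells. The shares over all tested genes were 3.78% and 3.54%. Pi16 (log2 change 2.93), Dpp4 (2.23) and Cd34 (1.68) were called higher, while Crabp1 (-0.95, limma adjusted p = 0.0166) and Lum (-0.70, limma adjusted p = 0.0339) were lower. Endothelial markers, 7 in number, summed to 54.7 and 47.4 FPKM in Runx2_cHom_KO cells, against 23.7 and 7.41 FPKM in Runx2_cHet_KO cells, with none listed at 0. The 7 skeletal muscle markers summed to 35.8 and 43.8 FPKM in Runx2_cHom_KO cells, against 0.664 and 2.60 FPKM in Runx2_cHet_KO cells, with 2 listed at 0 in each Runx2_cHet_KO library. The 5 epithelial markers summed to 5.76 and 8.63 FPKM in Runx2_cHom_KO cells, with 2 and 1 listed at 0, against 1.82 and 1.34 FPKM in Runx2_cHet_KO cells, with 3 listed at 0 in each. The 8 chondrocyte markers summed to 396 and 556 FPKM in Runx2_cHom_KO cells, against 365 and 234 FPKM in Runx2_cHet_KO cells. Of these 8, 0 were called, against 3.69% of all tested genes. The cartilage proteoglycan gene Acan passed the adjusted p alone (0.85, limma adjusted p = 0.0172). The 6 neural and Schwann markers summed to between 9.62 and 14.0 FPKM in the 4 libraries. The 8 macrophage and neutrophil markers summed to 34.4 and 43.0 FPKM in Runx2_cHom_KO cells, against 206 FPKM in Runx2_cHet_KO library 1 and 33.6 FPKM in library 2. Of these 8 markers 3 were listed at 0 in Runx2_cHet_KO library 2 and 1 in each Runx2_cHom_KO library. The part of these cell types in the higher Foxc1 and Zic1 levels was not tested.

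**Figure D3:**
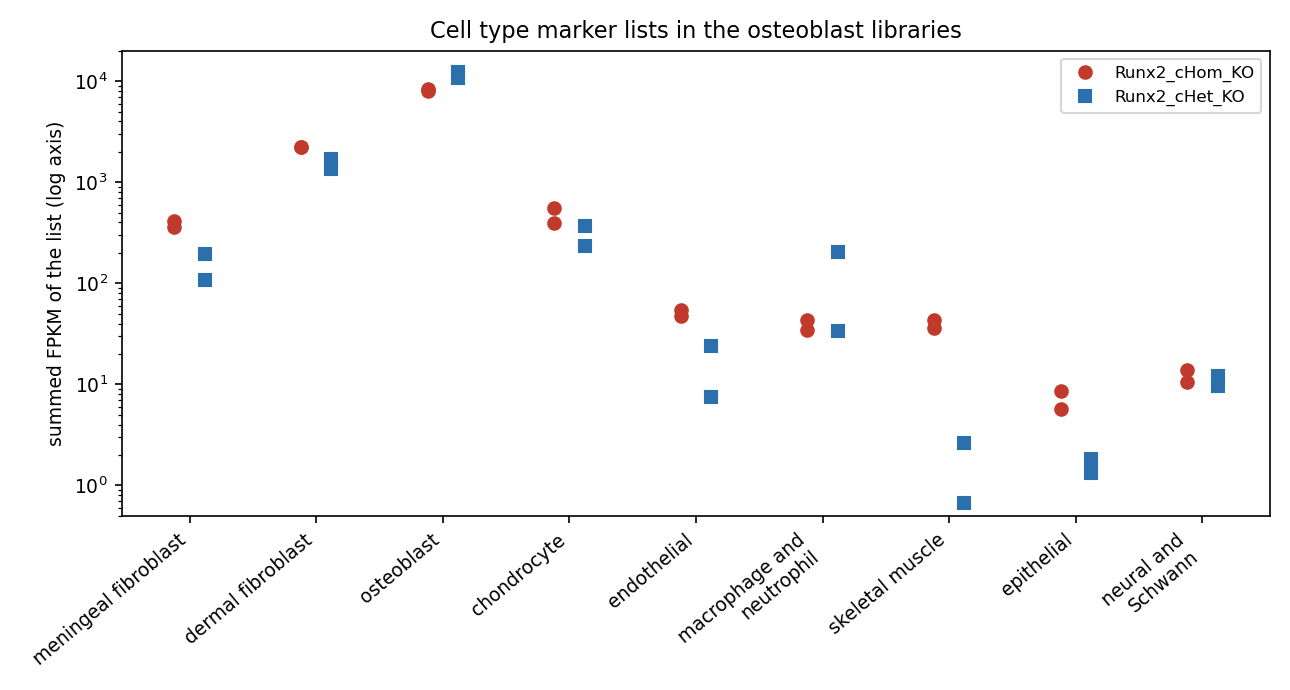
Summed FPKM of each cell type marker list (log axis) in each osteoblast library, with Runx2_cHom_KO points left of Runx2_cHet_KO points. Meningeal, dermal, chondrocyte, endothelial, skeletal muscle and epithelial sums are higher in both Runx2_cHom_KO libraries, osteoblast sums are lower, and the macrophage and neutrophil sum stands apart in 1 Runx2_cHet_KO library (206 FPKM).

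The second comparison set the Col10+ rib sort, the hypertrophic cells next to forming bone, against the Col2+ sort. The forkhead factors Foxc1 and Foxc2 and the homeodomain factor Alx1 were lower in Col10+ cells by more than 1 on the log2(FPKM + 1) scale, while Twist1 was higher by 0.93 on that scale. A gene was counted where log2(FPKM + 1) differed by at least 1 between the sorts and reached 5 FPKM in at least 1 of them. Of the 9 members, 4 reached that level, of which 3 were lower and 0 higher, and 14.2% of the 8354 genes at that level were lower and 13.8% higher. The median difference over these genes was -0.31, and scaling the columns by their median ratio moved it by 0.32 to 0.02.

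Foxc1 was at 11.5 FPKM in Col10+ cells and 30.4 FPKM in Col2+ cells, 2.64-fold lower in the Col10+ sort (log2 difference -1.33, or -1.001 with scaled columns, where it stayed just past the limit). Foxc2 was at 3.41 FPKM in Col10+ cells and 11.2 FPKM in Col2+ cells, 3.29-fold lower (-1.47, or -1.18 with scaled columns). Alx1 was at 6.22 FPKM in Col10+ cells and 14.8 FPKM in Col2+ cells, 2.38-fold lower (-1.13, or -0.82 with scaled columns, under the limit). These 3 genes were lower on either scale, 2 of them by the limit on both. Twist1 went the other way, at 12.1 FPKM in Col10+ cells and 5.90 FPKM in Col2+ cells, 2.05-fold higher as FPKM (log2 difference 0.93, or 1.23 with scaled columns, past the limit).

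The 5 members under 1 FPKM give no usable difference. Alx4 was at 0.155 FPKM in Col10+ cells and 0.0187 FPKM in Col2+ cells. Msx1 was at 0.265 FPKM in Col10+ cells and 0.574 FPKM in Col2+ cells, and Msx2 at 0.589 FPKM in Col10+ cells and 0.228 FPKM in Col2+ cells. Zic1 was at 0.126 FPKM in Col10+ cells and 0.0867 FPKM in Col2+ cells, and Lmx1b at 0.0559 FPKM in Col10+ cells and 0.0576 FPKM in Col2+ cells. Between 32.5% (Lmx1b) and 51.4% (Msx1) of the named genes of a sort had lower values than these 5, whereas in the osteoblast libraries between 77.6% (Msx1) and 96.9% (Zic1) did.

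**Figure D4:**
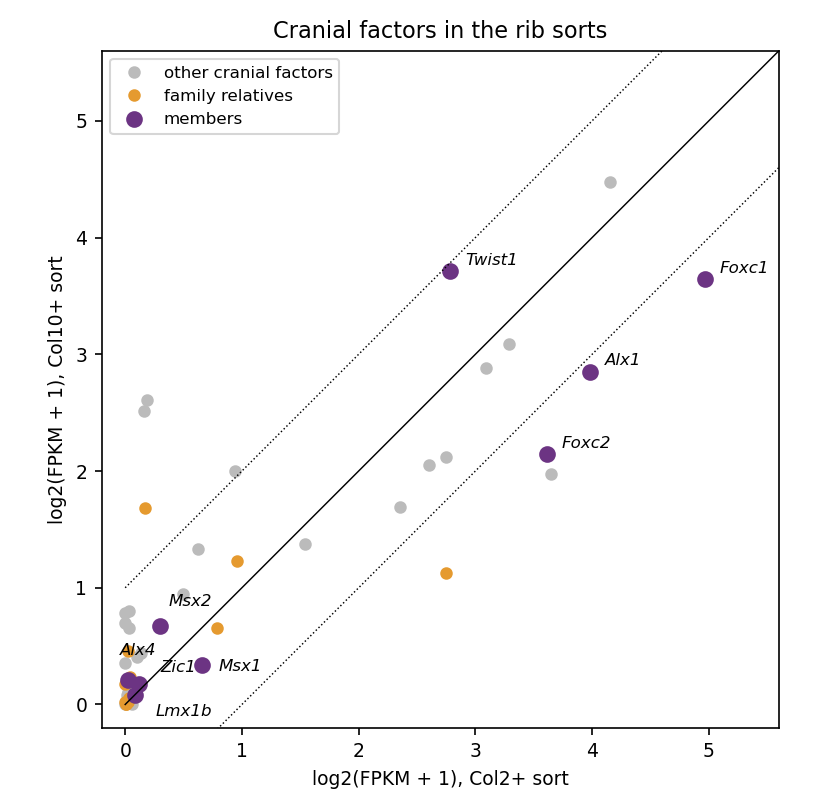
Level in the Col10+ sort (y axis) against the Col2+ sort (x axis) as log2(FPKM + 1), 1 value per sort, for the members, their family relatives and the other cranial factors. The solid line marks equal levels and dotted lines a difference of 1. Foxc1, Foxc2 and Alx1 lie under the lower dotted line, Twist1 just inside the upper one, and the other members near the origin.

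The wider lists moved in the same comparison as follows. Of 7 other cranial factors at 5 FPKM or more in a sort, 1 was higher and 1 lower (median -0.21). This is near the background, in which 13.8% of the 8354 genes at that level were higher and 14.2% lower. With scaled columns Dlx3 (log2 difference 2.52) came past 5 FPKM and Meis2 fell under it. Of the 7 factors then at that level, 2 were higher and 1 lower (median 0.10). Dlx5, a homeodomain factor of osteoblasts and hypertrophic cartilage, was at 5.09 FPKM in Col10+ cells and 0.137 FPKM in Col2+ cells, and Meis1, a homeodomain cofactor, at 2.92 FPKM in Col10+ cells and 11.5 FPKM in Col2+ cells. Of 9 partners and inhibitors at that level, 1 was lower and 0 higher (median -0.18), beside 14.2% and 13.8% of all genes. That 1, Tcf4, a helix-loop-helix partner, was at 21.3 FPKM in Col10+ cells and 46.7 FPKM in Col2+ cells (log2 difference -1.09, or -0.76 with scaled columns, under the limit). With scaled columns 0 of the 9 were lower and 2 higher, Lmo4 (1.17) and Id2 (1.09). Of 12 suture signalling genes at that level, 8 were lower and 0 higher (median -1.34), where 14.2% of all genes at that level were lower and the median was -0.31. With scaled columns 6 of the 12 were lower and 0 higher (median -1.02), since Fgfr3 (-0.92) and Efnb1 (-0.86) came under the limit, while over all genes the lower ones numbered 606 in place of 1188. The 6 with the largest differences were the ligands Fgf18, Fgf2 and Bmp4, the receptors Fgfr1 and Fgfr2 and the retinoic acid-degrading enzyme Cyp26b1. Fgf18 was at 1.48 FPKM in Col10+ cells and 15.7 FPKM in Col2+ cells, Fgfr1 at 72.5 FPKM in Col10+ cells and 385 FPKM in Col2+ cells, and Fgfr2 at 9.77 FPKM in Col10+ cells and 40.1 FPKM in Col2+ cells.

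The Col10+ sort also held far more RNA of blood and vessel genes. The 8 macrophage and neutrophil markers summed to 4602 FPKM in Col10+ cells, with none listed at 0, and to 0.522 FPKM in Col2+ cells, with 2 listed at 0. The 7 endothelial markers summed to 84.1 FPKM in Col10+ cells and 0.304 FPKM in Col2+ cells, with 2 listed at 0 in the Col2+ sort. The osteoblast markers also stood far apart: of the 9 at 5 FPKM or more, 8 were higher and 1 lower in Col10+ cells (median log2 difference 3.89). The shares over all genes at that level were 13.8% and 14.2%. Col1a1 was at 3305 FPKM in Col10+ cells and 10.6 FPKM in Col2+ cells, and Alpl, the gene of alkaline phosphatase, at 137 FPKM in Col10+ cells and 0.971 FPKM in Col2+ cells. Their sums, 5462 FPKM in Col10+ cells and 3437 FPKM in Col2+ cells, differed less because Spp1, which encodes osteopontin, was at 1614 FPKM in Col10+ cells and 3400.1 FPKM in Col2+ cells. The 7 chondrocyte markers with a row of their own summed to 38091 FPKM in Col10+ cells and 50076 FPKM in Col2+ cells. Dermal fibroblast markers summed to 448 FPKM in Col10+ cells and 509.5 FPKM in Col2+ cells, mostly Col3a1 and Lum. Of the 5 dermal markers at 5 FPKM or more, 2 were higher and 1 lower in Col10+ cells (median 0.50). Over all genes at that level 13.8% were higher and 14.2% lower. Cd34 was at 8.05 FPKM in Col10+ cells and 0.0720 FPKM in Col2+ cells, Dpt at 6.82 FPKM in Col10+ cells and 0.0198 FPKM in Col2+ cells, and Lum at 117 FPKM in Col10+ cells and 277 FPKM in Col2+ cells. The part of these cell types in the lower Foxc1, Foxc2 and Alx1 levels and the higher Twist1 level was not tested.

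The genes whose profile was nearest to each member were found among 18151 single named genes by the Euclidean distance over log2(FPKM + 1) in the 6 columns of the 2 tables. Lmx1b was nearest to Zic2 (distance 0.38), followed by Cdh3 and Tbx15. The closest match of all was Msx2 with Sema3a (0.37), followed by Robo2 and En1. Msx1 was nearest to Dzip1 (0.55), Msx1as and Wnt9a, Alx4 to Crabp1 (0.74), Six2 and Eya2, and Twist1 to Map4k3 (0.70), Lamb1 and Dpysl3. Foxc1 was nearest to Rhoj (0.67), Ptx3 and Boc, with Rhoj at 49.1 and 48.8 FPKM in Runx2_cHom_KO cells, 20.6 and 19.3 FPKM in Runx2_cHet_KO cells, 11.1 FPKM in Col10+ and 35.4 FPKM in Col2+ cells. Zic1 had the most distant neighbours, Fmo1 (1.14), Foxp2 and Mn1, and Alx1 was nearest to Zdhhc16 (0.48), Rars2 and Dctd. Foxc2, which has no osteoblast row of its own, was left out of this search. Among the 8 members searched Msx2 and Lmx1b were the closest pair (0.91). Alx1, Twist1 and Foxc1 had none of the other members searched within a distance of 4.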

How the data were processed

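The authors deposited FPKM values: per the file headers, 1 value for each rib sort and 1 for each osteoblast library. Per the submitters' processing notes, TopHat2 2.1.0, Cufflinks and Cuffdiff 2.2.1 were used with build mm9, named without their order. Per the labels' protocols, 100 ng of RNA entered a TruSeq kit for the ribs, while 1.7 ng entered a SMARTer Pico kit for the osteoblasts. The sources used here do not say how rib replicates were combined, and 1 further rib column matched no sample and was not used. Rows without a name (3444 in the rib table, 17.0% of summed FPKM in Col10+ and 8.48% in Col2+) or named by a date (25 rib, 26 osteoblast) were left out, and the highest row of a symbol was kept. Of the names, 22480 of 22583 for the ribs and 22542 of 22645 for the osteoblasts matched GRCm38 gene tables, used for names only. With limma 3.58.1 (R 4.3.3, trended and robust variances), log2(FPKM + 1) was fitted for genes that reached 1 FPKM in 2 or more osteoblast libraries, with Benjamini-Hochberg adjustment over all of them, after tests on simulated data. FPKM are relative, so abundant genes lower all others, and log2(FPKM + 1) understates changes of low genes. Nothing says the libraries came from separate embryos, so p-values measure spread that may be technical. Genes other than members were named by a rule: those called or past a log2 difference of 1 in a list (up to 6) and its 2 most abundant others; some marker genes were named after their values were seen. A listed gene is not reported here. Members and lists were chosen with earlier results of these data known.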

Additional observations from a re-analysis of the deposited data

How the results depend on the processing

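The members' values and the counts of called genes were recomputed under the alternatives. Dlx3 gave no value with a filter of 5 FPKM, which it did not pass. Without a filter on low values 153 genes rose and 95 fell between the osteoblast genotypes, and by adjusted p alone 450 were higher and 422 lower, with Zic1 past the threshold (log2 change 0.99). Zic1 also passed with a pseudocount of 0.1 (1.01) and with median-ratio scaling (1.02), and the row of Foxc2 and Foxl1 passed with a filter of 5 FPKM (1.51). Leaving out each library gave 0 to 399 rises and 0 to 271 falls, a log2 change of 1.23 to 1.54 for Foxc1 and of 1.03 to 1.98 for the Foxc2 and Foxl1 row. These fits assume that the lone library of a genotype varies like the other genotype. The cause was not tested. Foxc1 stayed past both limits in every alternative that kept all 4 libraries. With the replicate number as a block 174 genes rose and 119 fell, with Foxc1 past both limits (adjusted p = 0.0370) and Dlx3 just short (adjusted p = 0.0508). Same-numbered libraries did not deviate together over all genes (correlation -0.05 over 11909 genes). This does not settle whether they share more than a number, which the sources used here do not say. In the rib sorts 1940 genes were higher in Col10+ cells with a limit of 1 FPKM or none, and 606 were lower with scaled columns, where 1552 were higher. Scaling moved Alx1 to -0.82 and Twist1 to 1.23, and a pseudocount of 0.1 moved Alx4 to 1.10, Msx2 to 1.07 and Twist1 to 1.03. Alx4 and Msx2 were under 1 FPKM there. No paired analysis was possible for the rib sorts because each has 1 column. Depth is unknown, which limits every value under 1 FPKM.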
